A study of Mus musculus with 4 samples.

Results

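Transcripts that GENCODE M21 types as nonsense_mediated_decay (NMD-type below) were followed in mouse macrophages. Members were all transcripts whose type field in the deposited transcript tables reads nonsense_mediated_decay. There were 7186 of them among 141767 transcripts, in 4576 of 55450 genes. Primary macrophages grown from the bone marrow of C57BL/6J mice gave 4 RNA-seq libraries of polyadenylated RNA, all of 1 group. The cells had 12 h of 100 ng/ml lipid A, the membrane-anchoring part of bacterial lipopolysaccharide, then a washout of 12 h, and were taken at the 0 min point of a second lipid A stimulation. Other label fields name the agent lipoprotein A, and the labels state neither age nor sex. Untreated cells were not analysed here, and nothing below compares treated with untreated cells. The replicates are separate biosamples with the same donor identifier, and the p-values below measure only the spread between these libraries.

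Nonsense-mediated decay is a surveillance pathway that removes mRNAs whose translation ends too early. After splicing, a protein complex stays bound just upstream of each exon junction, and a ribosome that stops well before the last junction leaves such a complex on the mRNA. UPF1 and the SMG proteins then bring the mRNA to degradation. Annotation gives the type to transcripts with a stop codon far upstream of the last junction, whether or not they are degraded. Many splicing factor genes use the pathway to hold down their own level, by including a poison exon that carries a stop codon.

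The stop codon was placed in 4 ways, and the sequences that show them are the 27 bases of the spliced transcript before the stop codon, in lower case, followed by the stop codon in capitals. They are reference sequence from GENCODE M21, 5′ to 3′ on the transcript strand. The first 4 transcripts have the stop codon in an exon of their own, which overlaps no exon of a protein-coding transcript of the gene. In Srsf3-201 (chr17:29039485-29039487, plus strand) it lay in exon 4, of 456 nt; in Tra2b-206 (chr16:22259181-22259183, minus strand) in exon 2, of 276 nt; in Tra2a-202 (chr6:49252965-49252967, minus strand) in exon 2, of 306 nt; and in Gpnmb-202 (chr6:49042310-49042312, plus strand) in exon 2, of 96 nt.
Srsf3-201: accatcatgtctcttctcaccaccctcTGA
Tra2b-206: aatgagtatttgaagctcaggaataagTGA
Tra2a-202: aaaaaattgaacagaagattggtcagaTAG
Gpnmb-202: atgtgtggaggtcagtggacaagtctgTGA

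In the next 4 the stop codon lay inside an exon that protein-coding transcripts of the gene also contain, without being their stop codon. These were Hnrnpu-206 (chr1:178325281-178325283, minus strand), Mx1-205 (chr16:97451528-97451530, minus strand), Oasl2-205 (chr5:114901288-114901290, plus strand) and Ppia-201 (chr11:6418241-6418243, plus strand).
Hnrnpu-206: gtccatgtgaatgtgctgtgtgaagagTAA
Mx1-205: atctgtagatggtccaaactgccttcgTAA
Oasl2-205: aaccagcaccggcaatctacgagactcTGA
Ppia-201: caaagacagcagaaaactttcgagctcTGA

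In Gtpbp4-201 (chr13:8987948-8987950, minus strand) and Hnrnpdl-205 (chr5:100038593-100038595, minus strand) the stop codon lay in a part by which the exon extends an exon of a protein-coding transcript. In Srsf6-201 (chr2:162932964-162932966, plus strand) it was the stop codon of an annotated protein-coding transcript too.
Gtpbp4-201: aagtatctgcgctggcagcctggttgtTAG
Hnrnpdl-205: attctccgcgtgcccgctggaccccagTAG
Srsf6-201: gccatgacgacagcagccttttgccatTAG

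Over all members, 4267 (59.4%) had the stop codon inside an exon of a protein-coding transcript and 1435 (20.0%) in an exon of their own. In 882 (12.3%) it lay in an extension and in 505 (7.03%) at a stop codon shared with a protein-coding transcript. A further 95 lay in genes without a transcript of type protein_coding, and 2 had no annotated stop codon. Of the 7184 annotated stop codons, 4158 were TGA, 1613 TAA and 1413 TAG. The median distance from the stop codon to the last exon junction was 334 nt (quartiles 160 and 741 nt). In 34 transcripts it was under 50 nt, or the stop codon lay after the last junction. Members had a median length of 1255 nt and a median of 7 exons, against 1816 nt and 6 exons for protein-coding transcripts. The coding start was not found in 2074 of them, so these are partial models. Most genes had 1 member (2987), 1589 genes had 2 or more, and Slc4a7, a bicarbonate transporter gene, had 18.

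Levels are given as TPM (transcript abundance per length, scaled to a fixed library sum), which the authors scaled within each library, first from the tables in RSEM column layout and then from those in kallisto layout. Expected counts summed over transcripts were 25591162, 27377972, 48866046 and 57119610 in replicates 1 to 4, and 1.23, 1.53, 1.70 and 1.63% of them fell on NMD-type transcripts. A transcript listed at 0 may still have had up to 3 expected counts, which covers counting error only, and replicates 3 and 4 are the deeper libraries. All 9 macrophage markers had at least 10 TPM in every library. The T and NK cell, fibroblast and erythroid markers were all below 1 TPM, as were 4 of 5 B cell markers. The 7 neutrophil markers summed to 89.4, 14.0, 78.5 and 6.97 TPM in replicates 1 to 4 and the 4 endothelial markers, mostly Kdr, to 14.4, 33.8, 13.0 and 25.3 TPM, neither of them in the order of the pairs of libraries compared below. The label macrophage therefore fits its defining markers in all 4 libraries.

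A minority of NMD-type transcripts were found at appreciable levels. In RSEM 823 (11.5%) had at least 1 TPM in every library, 155 at least 10 TPM and 11 at least 100 TPM, while 2608 (36.3%) were listed at 0 TPM in all 4. Kallisto put 899 at this level in all libraries, and 683 passed in both tables. The share at 1 TPM lay below that of protein-coding transcripts (23.7% in RSEM) and above those of retained-intron transcripts (6.36%) and processed transcripts (6.05%). These shares describe the annotation in these libraries, and no test was made between types. Detection differed little with the place of the stop codon. Of transcripts with a stop codon in an exon of their own, 10.9% had at least 1 TPM in every library. It was 11.3% with one inside an exon of a protein-coding transcript, 12.5% with one in an extension and 12.5% with a shared one. In kallisto the exon-of-its-own class stood at 14.4% and the class inside an exon of a protein-coding transcript at 11.5%. By distance to the last junction the share was 9.68% from 50 to under 100 nt (899 transcripts), 10.6% from 100 to under 200 nt, 11.3% from 200 to under 500 nt, 13.8% from 500 to under 1000 nt and 11.7% at 1000 nt or more. By annotated support level, where 1 is the best, it was 15.0% at level 1 (2080 transcripts), 15.1% at level 2 (517), 8.81% at level 3 (1249) and 9.49% at level 5 (2351).

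NMD-type transcripts held about 2% of all transcript TPM. Their share was 1.32, 1.60, 2.39 and 2.70% in replicates 1 to 4 in RSEM (2.00% ± 0.65, SD, n = 4) and 1.40, 1.60, 2.24 and 2.55% in kallisto (1.95% ± 0.54, n = 4). Replicates 3 and 4 thus stood above replicates 1 and 2 in both tables. In RSEM most of that gap lay in 1 transcript, Gpnmb-202, a 365-nt model of the gene for a lysosomal glycoprotein of macrophages. It held 3.12, 2.63, 22.9 and 30.3% of the NMD-type TPM in RSEM and 0.261, 0.242, 10.6 and 17.0% in kallisto. Without it the share was 1.28, 1.56, 1.84 and 1.88% in RSEM and 1.40, 1.60, 2.00 and 2.12% in kallisto, still without overlap between the 2 pairs of libraries. Retained-intron transcripts held 2.77, 3.96, 4.02 and 4.19% in RSEM and processed transcripts 2.08, 2.24, 3.89 and 3.75%. Both types were higher in replicates 3 and 4 in kallisto too. Protein-coding transcripts held 82.2, 87.3, 82.3 and 82.3% in RSEM and 68.8, 75.4, 79.7 and 79.2% in kallisto. The higher share was thus not particular to NMD-type transcripts. NMD-type members under 600 nt, Gpnmb-202 among them, held 0.212, 0.247, 0.867 and 1.20% of all TPM in RSEM, and longer ones 1.11, 1.35, 1.52 and 1.5%. Without Gpnmb-202 those under 600 nt held 0.171, 0.205, 0.319 and 0.378%. In kallisto members under 600 nt held 0.185, 0.231, 0.512 and 0.764%, and 0.181, 0.227, 0.275 and 0.330% without Gpnmb-202. In bulk RNA, fewer cells with a transcript and less of it per cell cannot be told apart.

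**Figure D1:**
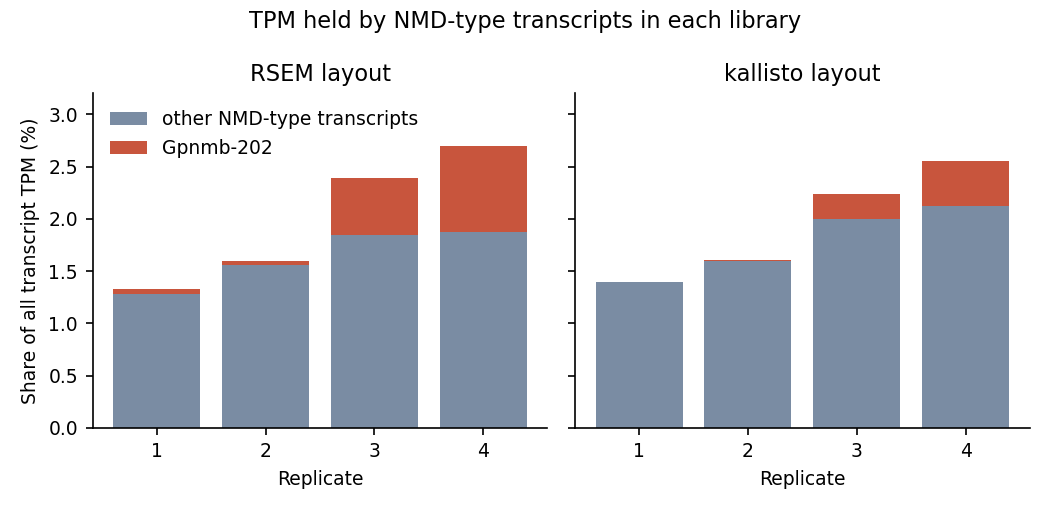
Share of all transcript TPM (%, y axis) held by NMD-type transcripts in each library (x axis), from the RSEM-layout tables on the left and the kallisto-layout tables on the right, with Gpnmb-202 stacked in red on all others in blue-grey. Replicates 3 and 4 stand at 2.24 to 2.70%, above the 1.32 to 1.60% of replicates 1 and 2, and the red part is wider in RSEM than in kallisto.

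The NMD-type transcripts of highest mean TPM included genes of very different roles: lysosome (Gpnmb), protein folding (Ppia), antiviral defence (Mx1, Oasl2, Xaf1), actin and its control (Pfn1, Rac2), immune receptors (Lilr4b) and vesicle traffic (Tmed2). Gpnmb-202 had 414, 420, 5485 and 8182 TPM in RSEM and 36.5, 38.7, 2373 and 4338 TPM in kallisto. It was far higher in replicates 3 and 4 in both tables, and in replicates 1 and 2 RSEM gave far more than kallisto. Ppia-201, from the gene for the prolyl isomerase cyclophilin A, was even across libraries, at 584, 639, 719 and 728 TPM in RSEM and 459, 567, 590 and 594 in kallisto. It took 50.4, 46.0, 62.5 and 66.3% of the gene's TPM in RSEM. Ppia and ribosomal protein genes are known for near-identical processed pseudogenes, and Lilr4b has the close copy Lilrb4a. How the counting divided reads between such copies was not tested.

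Interferon-stimulated genes also had NMD-type transcripts among the 10 highest. Mx1 encodes an antiviral GTPase, and in common laboratory strains its allele is known to make no functional protein. Mx1-205 had 536, 538, 389 and 284 TPM in RSEM and 316, 305, 282 and 179 in kallisto, 49.3, 49.7, 39.4 and 32.5% of the Mx1 TPM in RSEM and 31.3, 28.8, 25.7 and 18.3% in kallisto. Replicate 4 was the lowest by both measures in both tables. Together the 3 NMD-type transcripts of Mx1 held 49.9% ± 8.4 of its TPM in RSEM (n = 4). Oasl2-205, from a gene of the oligoadenylate synthetase family, had 222, 287, 509 and 542 TPM and 55.8, 54.2, 68.1 and 71.4% of its gene in RSEM, with kallisto shares of 44.1, 44.3, 57.4 and 59.7%. Xaf1-201, from the gene for a pro-apoptotic protein induced by interferon, had 234, 254, 416 and 513 TPM and 46.0, 47.1, 60.0 and 67.3% of its gene. Its stop codon lies only 29 nt before the last junction. Of the listed 55 interferon-stimulated and antigen presentation genes, 12 had 16 NMD-type transcripts, of which 10 reached 1 TPM in every library. The list's median share over its 12 genes was 1.70% in RSEM and 5.10% in kallisto, and the lowest in RSEM was 0.0472%, of the guanylate-binding protein gene Gbp2. Psmb9, an immunoproteasome subunit gene, had an NMD-type share of 6.84% ± 1.00 in RSEM and 29.0% in kallisto, so that kallisto gave several times the RSEM share.

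Within genes, the NMD-type share was usually low. Among the 1859 genes with a member and at least 10 TPM in every library, the median share per library was 2.11, 2.30, 1.95 and 1.86% in RSEM (2.06% ± 0.19, n = 4). In kallisto it was 3.30, 3.59, 2.61 and 2.60% over 1753 genes (3.02% ± 0.50). Kallisto thus gave the higher median in every library, and replicates 3 and 4 had the lower medians in both tables, opposite to their share of total TPM. In 462 genes (24.9%) the share stayed below 1% in every library in RSEM, in 313 (16.8%) it was at least 10%, and in 39 (2.10%) at least 50%. Kallisto gave 49 genes at 50%, and 32 genes passed in both tables. Across genes, which are not independent replicates, the shares of replicates 1 and 2 had a Spearman correlation of 0.870 and those of 3 and 4 of 0.894. Between the pairs it was 0.742 to 0.775. All of these values share 1 annotation and gene set.

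The 32 genes in which NMD-type transcripts held at least 50% in every library and in both tables ranged from Gm20716, whose only annotated transcript is NMD-type, to Sec22b, a vesicle fusion gene at 53.8% in RSEM and 59.4% in kallisto. Genes for mitochondrial proteins among them included Mrps14, Mrpl32 and Mrpl3, of the mitochondrial ribosome, and Lars2, the mitochondrial leucyl-tRNA synthetase. They also included Dnajc15, an inner-membrane co-chaperone, Ndufs4, a complex I subunit, Pet100, an assembly factor of cytochrome oxidase, and Slc25a12, a carrier. Others act in ribosome assembly (Gtpbp4, Tsr2), RNA binding and splicing (Hnrnpu, Prpf4b), SUMO removal (Senp2), apoptosis (Bak1) and the braking of G protein signals (Rgs1). These genes were named after their values were seen, and no enrichment was tested.

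Mrps14-201 held 83.0, 81.9, 81.1 and 89.1% of its gene in RSEM and 86.9, 85.5, 74.9 and 87.1% in kallisto, at 37.7, 37.7, 16.6 and 18.4 TPM. The share was even although the TPM in replicates 3 and 4 was less than in 1 and 2. Mrpl32-201 held 80.4, 79.0, 87.7 and 87.4% at 41.6, 43.4, 76.2 and 80.2 TPM, and Dnajc15-201 78.3, 79.2, 91.6 and 94.1% at 30.4, 32.6, 63.0 and 67.6 TPM. Gtpbp4-201 held 81.4, 82.6, 92.8 and 93.3%. In these 3 both the share and the TPM were higher in replicates 3 and 4, and none of the 3 passed the test of counts given below (edgeR adjusted p = 0.092, 0.073 and 0.059 for Mrpl32-201, Dnajc15-201 and Gtpbp4-201). Aptx-205, from a DNA repair gene, held 85.7, 86.7, 78.5 and 79.7%, and Tsr2-203 64.7, 69.9, 76.0 and 76.2%. Ifi214-201, of an interferon-inducible gene family with near-identical members, held 95.4 to 98.1% in RSEM and 50.1 to 86.8% in kallisto, and the division of reads within the family was not tested.

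**Figure D2:**
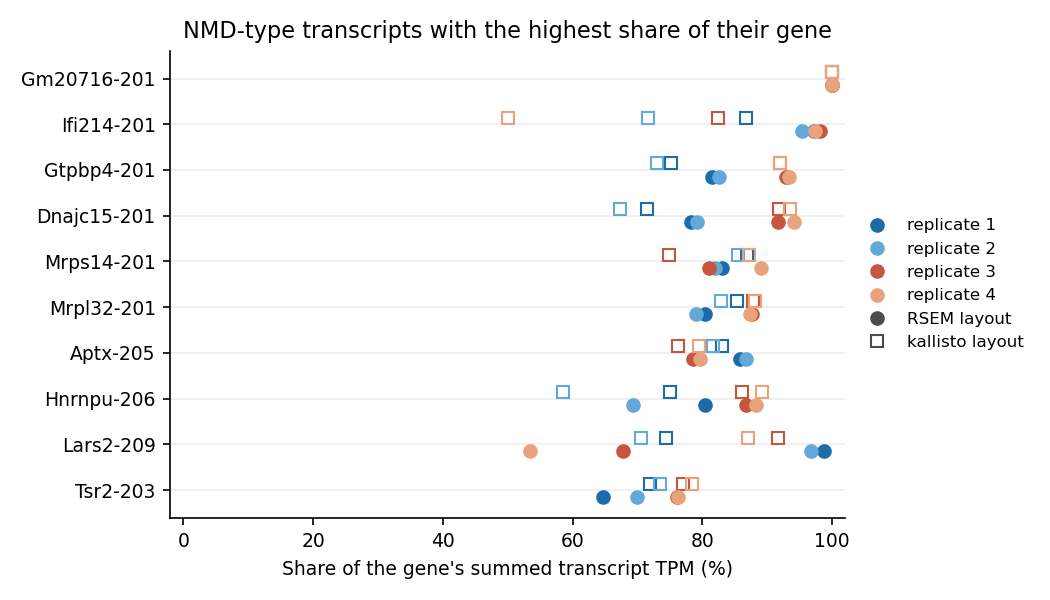
Share of the gene's summed transcript TPM (%, x axis) for the 10 NMD-type transcripts of highest share in both tables, 1 line each. Filled circles are RSEM and open squares kallisto, coloured by replicate. Gm20716-201 sits at 100% throughout, and Lars2-209 spreads most in RSEM, from 53.4 to 98.7%.

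Lars2-209 was the exception among these transcripts. It had 369, 266, 19.8 and 15.7 TPM in RSEM and 1392, 1029, 137 and 123 in kallisto, several times higher in kallisto and far higher in replicates 1 and 2 in both. Its share was 98.7, 96.7, 67.8 and 53.4% in RSEM but 74.4, 70.6, 91.6 and 87.0% in kallisto, so the order of the pairs turned with the table. The annotated rRNA gene CT010467.1 had 84920, 10124, 3126 and 3490 TPM in the same libraries, and its part in the Lars2-209 values was not tested.

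Splicing regulator genes, the best-known carriers of poison exons, often had an NMD-type transcript at an appreciable level and share. Of 13 SR protein and TRA2 genes, 11 had 19 NMD-type transcripts, and 6 of the 19 (31.6%, beside 11.5% of all members) had at least 1 TPM in every library. The 11 genes all had at least 10 TPM. The median over them of the mean NMD-type share was 9.85% in RSEM and 13.2% in kallisto, beside 2.60% and 3.74% over all such genes. Of the 48 listed hnRNPs and other splicing regulators, 33 had 81 members, of which 29 (35.8%) reached 1 TPM in every library, and the median share over 30 genes was 10.7% in RSEM and 10.6% in kallisto. The 11.5% also covers members of genes below 10 TPM. By the same measure detection was higher in the lists of interferon-stimulated (62.5%), macrophage (57.1%) and ribosomal protein genes (44.0%). It was 0% in the lists of NMD factors and of TLR and NF-kB signalling. The lists were chosen with earlier results known, and these counts are a description.

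SR proteins bind exonic enhancers and promote splicing. In Srsf3, the gene of the smallest SR protein, the poison-exon transcript Srsf3-201 had 10.7, 14.0, 11.8 and 10.9 TPM in RSEM, an even level in all 4 libraries. The gene had 61.7, 77.6, 52.8 and 39.6 TPM. The share of Srsf3-201 was 17.4, 18.1, 22.4 and 27.6% in RSEM and 27.2, 23.6, 33.6 and 43.9% in kallisto, without overlap between the pairs. Neither the level nor the usage of Srsf3-201 passed the tests (edgeR adjusted p = 0.92 and 0.88). The second Srsf3 member, Srsf3-206, which contains the same 456-nt exon, was at 0 TPM throughout.

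Tra2b-206, with the 276-nt poison exon of the splicing activator Tra2b, had 5.41, 10.3, 8.54 and 5.41 TPM and 8.58, 14.9, 8.52 and 5.97% of its gene in RSEM. Its kallisto share was 17.3, 20.3, 11.8 and 9.64%. Replicate 2 was the highest in both tables. Tra2a-202, its counterpart in Tra2a, had 1.73, 5.86, 7.26 and 3.85 TPM and 5.61, 13.7, 23.5 and 12.9%, with much higher kallisto shares of 15.9, 36.2, 65.6 and 50.2%. The order of the libraries was nearly the same in both tables, lowest in replicate 1 and highest in replicate 3, and the size was not.

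Srsf2-204 had 38.3, 47.8, 44.9 and 56.1 TPM and 28.7, 27, 28.6 and 34.9% of its gene, the highest NMD-type level in the SR list. Srsf6-201 had 6.86, 7.94, 18.2 and 10.4 TPM and 19.4, 17.8, 41.0 and 28.6% in RSEM against 55.0, 41.8, 56.0 and 57.2% in kallisto. Srsf4-204 stood at 1.60 to 3.38 TPM and 5.96 to 10.7%. Srsf7-203, whose stop codon lies in a 460-nt exon of its own, had 0.56 to 1.51 TPM, at most 3.63% of its gene, and Srsf1-204 had 0.66 to 4.21 TPM. The other members of the list (Srsf5-208, Srsf9-205, the 3 of Srsf11, Srsf4-203, Srsf2-202, Srsf1-207, Tra2b-207 and Tra2b-209) were at 0 TPM or below 1 TPM in at least 1 library. Srsf10 and Srsf12 had no NMD-type transcript.

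**Figure D3:**
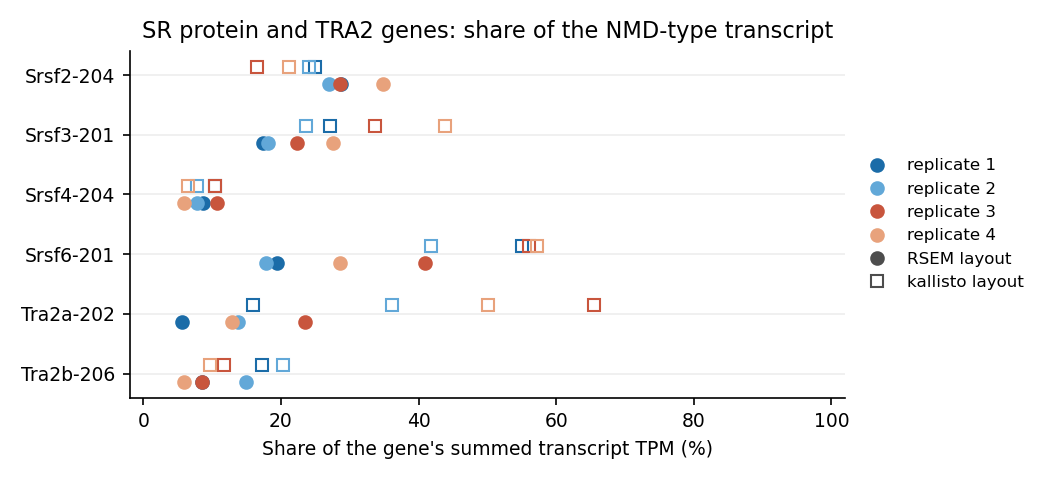
Share of the gene's summed transcript TPM (%, x axis) held by the 6 NMD-type transcripts of SR protein and TRA2 genes with at least 1 TPM in every library. Filled circles are RSEM and open squares kallisto, coloured by replicate. Kallisto gives higher shares for Srsf3-201, Srsf6-201, Tra2a-202 and Tra2b-206 and lower ones for Srsf2-204.

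Among the hnRNPs, which bind nascent RNA and often repress exons, Hnrnpu-206 held most of its gene: 80.4, 69.3, 86.7 and 88.3% in RSEM and 75.0, 58.6, 86.1 and 89.1% in kallisto, at 141, 122, 300 and 237 TPM. Replicate 2 was lowest in both. Hnrnpdl-205 had 15.6, 20.7, 89.8 and 121 TPM and 26.9, 22.5, 62 and 74.3% of its gene, and Hnrnpd-208 17.2, 12.8, 101 and 111 TPM and 13.2, 9.11, 33.8 and 42.7%. For both genes kallisto gave similar TPM in replicates 3 and 4 (13.9, 19.8, 90.6 and 119 for Hnrnpdl-205, 7.18, 12.2, 100 and 110 for Hnrnpd-208), and replicates 3 and 4 lay far above 1 and 2. Other members named after their values were seen were steadier. Tardbp-208, from the TDP-43 gene, had 26.3, 29.7, 26.1 and 25.2 TPM and 18.7, 19.9, 19.2 and 21.2% in RSEM, with 15.5 to 17.5% in kallisto. Syncrip-203 had 25.6, 33.9, 33.7 and 27.6% and Clk1-210 and Clk2-204, from genes of kinases that phosphorylate SR proteins, 21.7 to 36.3% and 23.2 to 32.5%. Rbm39-225 had 13.4, 13.7, 16.0 and 16.2% in RSEM and 11.6 to 14.1% in kallisto.

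Several ribosomal protein genes are known to regulate their own splicing. Of 87 ribosomal protein genes, 19 had 25 NMD-type transcripts, of which 11 reached 1 TPM in every library. The median share over the 19 genes was 1.61% in RSEM and 2.68% in kallisto. Rps19-205 had 50.5, 93.9, 20.7 and 17.4 TPM while its share stayed at 18.5 to 25.0%. Its gene had 273, 454, 82.8 and 78.0 TPM and was called lower in replicates 3 and 4 (edgeR log2 fold change -2.16, SE 0.19, adjusted p = 0.0137). Of all genes tested 3.60% were called lower. Of the 85 ribosomal protein genes tested 30 were called lower and 1 higher. For Rpsa-206 replicate 4 stood apart in RSEM alone, at 123, 154, 139 and 49.8 TPM and 51.3, 57.8, 49.7 and 17.4% against 74.5, 74.8, 68.2 and 67.6% in kallisto. Rpl12-201 had 6.51 to 19.3% in RSEM and 28.0 to 65.3% in kallisto.

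Of 25 genes for NMD factors, exon junction proteins and release factors, 5 had 7 members, and none of the 7 had at least 1 TPM in every library in either table. Smg5-202 had 0.37, 0.62, 1.32 and 1.46 TPM, Magohb-203 0.28, 0.23, 1.77 and 1.00 TPM, and Smg6-202 0.09, 1.32, 1.38 and 0.09 TPM. The first of these was detected at a low level in all libraries, and the last was at 0 to 0.102 TPM in kallisto. The genes themselves were expressed, 21 of 25 at 10 TPM or more in every library, with 24.3, 26.6, 20.7 and 19.0 TPM for Upf1, the helicase at the centre of the pathway, and 23, 21.4, 13.4 and 13.4 TPM for Smg1, the kinase that phosphorylates it. Upf2 and Upf3a, which link UPF1 to the junction complex, had 12.2 to 26.0 and 17.2 to 30.2 TPM. By a gene-level edgeR test added after the data were seen, Pabpc1, the poly(A)-binding protein gene, was the 1 called of 25, higher in replicates 3 and 4 (379, 429, 1263 and 1432 TPM, log2 fold change 1.10, SE 0.22, adjusted p = 0.0474), beside 5.48% of all 13253 genes tested, 1.88% higher.

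The TLR and NF-kB list, the pathway that senses lipid A, had 13 NMD-type transcripts in 10 of 50 genes, and none reached 1 TPM in every library in RSEM (1 did in kallisto). The median share over 9 genes was 1.63%. Relb-210, from the gene of an NF-kB subunit, had 0.89, 0.60, 4.28 and 6.83 TPM and 3.18, 1.34, 30.1 and 37.9% of its gene in RSEM, and 2.84, 0.832, 33.7 and 40.4% in kallisto. Its share was high in replicates 3 and 4 only, and its usage was called in RSEM (edgeR adjusted p = 0.0015) but not in kallisto (0.184). Its counts passed in neither table (edgeR adjusted p = 0.0587 and 0.0727). Nfkb1-207, from the p50 precursor gene, had 9.95, 15.5, 0 and 0 TPM in RSEM and 0, 2.01, 0 and 0 in kallisto, so its level depended on the table. Of 34 macrophage identity, lysosome and iron genes, 7 had 1 member each, and 4 of these reached 1 TPM in every library. Ftl1-202, of the ferritin light chain gene, had 86.8, 139, 150 and 123 TPM but at most 1.53% of its gene. Fcgr1-202, from the gene of the high-affinity IgG receptor, had 95.6, 71.4, 11.2 and 6.42 TPM in RSEM and 376, 232, 11.7 and 6.92 in kallisto, high in replicates 1 and 2 in both.

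Between the 2 quantifications, which used the same reads, NMD-type transcripts differed about as often as others. Of 1765 with a mean of at least 1 TPM in either table, 192 (10.9%) were at least 2-fold apart in the same direction in every library, 134 higher in kallisto and 58 in RSEM, beside 10% of 29859 transcripts of all types. The Spearman correlation of mean TPM across these members was 0.680, and 0.803 across all types. Spic-202, from the gene of a transcription factor of iron-recycling macrophages, was listed at 0 TPM in RSEM and had 6.34, 6.66, 14.7 and 14.9 TPM in kallisto. Olfr93-202, of an olfactory receptor gene, was likewise at 0 in RSEM and had 3.76 to 25.8 TPM in kallisto, and Rbm39-224 had 0 to 0.15 against 5.39 to 20.4 TPM. In the other direction Myof-205, of the membrane repair gene myoferlin, had 15.5 to 47.1 TPM in RSEM and 0 to 2.47 in kallisto. Flna-213, of the actin cross-linker filamin A, had 5.18 to 14.5 against 0 to 0.779 TPM, and Ptbp1-212, of a splicing repressor gene with its own regulated exon, 1.98 to 7.32 TPM against 0. None of these 6 levels can be given without naming the table. The TPM intervals deposited with the RSEM tables had a median width of 0.545 of the TPM for members with at least 1 TPM in every library, and 0.240 for protein-coding transcripts, so the NMD-type intervals were wider for their level.

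**Figure D4:**
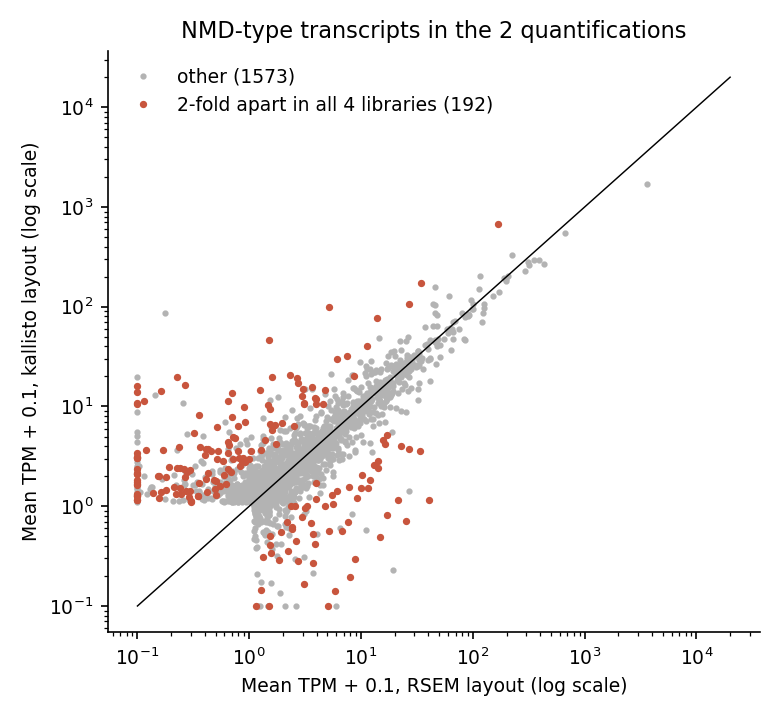
Mean TPM + 0.1 over the 4 libraries in the kallisto-layout tables (y axis, log scale) against the RSEM-layout tables (x axis, log scale) for 1765 NMD-type transcripts, 1 point each, with the line of equality. The 192 transcripts at least 2-fold apart in every library are red and lie mostly above the line (134) and at low levels.

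How steady a transcript's share was varied widely. Among the 403 members with a mean share of at least 10% in both tables in genes of at least 10 TPM, the median coefficient of variation over the 4 libraries was 33.3%. It was below 10% for 44 of them and above 50% for 117. Besides Gm20716-201, the steadiest were Ifi214-201 in RSEM (1.19%) and Prdx6-208, from the gene of an antioxidant enzyme, whose share was 48.9, 49.0, 50.2 and 48.9% in RSEM and 48.9, 48.9, 46.7 and 45.7% in kallisto. At the other end stood Lilrb4a-205 (35.1, 6.82, 0.773 and 1.16%), Lrp12-204 (0, 0, 16.4 and 44.6%) and Rock1-204, of a kinase gene of the actin cytoskeleton (0, 0, 19.3 and 40.9%). The share of Lilrb4a-205 stood high in replicate 1 alone, although its TPM was alike in replicates 1 and 2 (60.3, 56.1, 5.0 and 6.88), and the other 2 were listed at 0 in replicates 1 and 2 and not in 3 and 4 in RSEM. Kallisto gave Rock1-204 shares of 18.2, 7.98, 44.8 and 58.6%, so its 0 did not hold there, whereas Lrp12-204 was at 0 in the same libraries.

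Replicates 1 and 2 came from 6 read files each and replicates 3 and 4 from 4 each, per the deposited notes, and the libraries were compared along this split. It is a comparison of libraries, not of conditions, and what the split reflects is not stated. Of 33888 transcripts tested by edgeR's quasi-likelihood test, 1466 (4.33%) passed the adjusted threshold of 0.05, with 2.67% higher in the second pair and 1.66% lower. Of 2243 NMD-type transcripts that passed the count filter, 129 (5.75%) were called, 91 higher (4.06%) and 38 lower (1.69%). The 4943 that did not pass are not counted. Counts in 1 pair alone can meet the filter, so transcripts at 0 in the other pair were tested and enter these percentages, for members and for all transcripts alike. The median log2 fold change was 0.05 over the tested members and -0.00 over all transcripts tested. Of protein-coding transcripts 4.33% were called, and of retained-intron transcripts 2.93%. A test of usage, which asks whether a transcript's fold change departs from that of the rest of its gene, called 233 of 2208 members (10.6%), 145 higher (6.57%) and 88 lower (3.99%). Over all 28812 transcripts tested for usage 8.06% were called, 4.99% higher and 3.06% lower, with 7.53% of protein-coding and 6.53% of retained-intron transcripts. The share of TPM of mitochondrial transcripts moved along the same split (1.88, 2.69, 8.30 and 9.27% in RSEM), as did depth, and their part in these calls was not tested.

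Calls depended on single libraries and on the table. Without replicate 1 or 2 no call by counts remained, among members or among transcripts of all types, while some usage calls did. Without replicate 3 or 4 calls by counts covered a smaller share of both. Each such fit held 1 library in an arm, so its calls are not counted here. DESeq2 called 405 members (18.1%), among them all 129, beside 16.0% of all transcripts tested. Of the 91 higher calls, 31 were listed at 0 TPM in both low libraries in RSEM, and 15 of these 31 were at 0 in kallisto as well. Of the 38 lower calls this held for 20 and 6. These 31 and 20 met the count filter only through the pair where they were high. With kallisto counts, 54 of the 129 were called in the same direction, 39 higher and 15 lower.

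Several transcripts with large changes were called in the same direction in both tables. Rac2-202, of a small GTPase gene of blood cells, had 29.0, 37.0, 569 and 610 TPM in RSEM and 80.1, 80.2, 450 and 514 in kallisto, 5.39, 5.36, 32.5 and 35.9% of its gene (log2 fold change 4.19, SE 0.19, edgeR adjusted p = 0.017). Pfn1-204, of the actin-binding protein profilin 1, had 7.95, 7.39, 364 and 514 TPM in RSEM and 7.11, 7.44, 491 and 801 in kallisto (5.87, SE 0.32, adjusted p = 0.017). For Gpnmb-202 the log2 fold change was 3.99 (SE 0.30, adjusted p = 0.0186) and its gene had 3946, 4378, 11887 and 18381 TPM. The Gpnmb gene itself did not pass on counts (log2 fold change 0.69, SE 0.29, edgeR adjusted p = 0.194). Hnrnpdl-205 (2.61, SE 0.23, edgeR adjusted p = 0.020) and Hnrnpd-208 (2.85, SE 0.32, edgeR adjusted p = 0.025) were called by counts, by usage and in kallisto. On kallisto counts the log2 fold changes were 2.32 for Rac2-202, 6.15 for Pfn1-204, 6.21 for Gpnmb-202, 2.28 for Hnrnpdl-205 and 3.11 for Hnrnpd-208. The size thus depended on the table, most for Gpnmb-202 and Rac2-202. In each of these 5 both libraries of 1 pair lay above both of the other in both tables. The 5 are given here because they were called between these pairs, so the lack of overlap is no further support.

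Further transcripts called in both tables, named after their values were seen, came from genes of energy metabolism and signalling. Atp5f1-203, of an ATP synthase subunit gene, had 74.8, 86.4, 311 and 295 TPM and 37.5, 40.9, 77.3 and 81.5% of its gene. Ifngr1-203, of the interferon gamma receptor gene, had 1.52, 0.67, 45.7 and 49.9 TPM. Nampt-203, of the NAD salvage enzyme gene, had 0.20, 0.38, 34.9 and 65.3 TPM in RSEM and 3.63, 2.83, 65.1 and 107 in kallisto. In the other direction Rpl13a-205 had 113, 174, 5.52 and 6.35 TPM in RSEM and 105, 124, 3.56 and 6.18 in kallisto, from 15.3 and 18.8% of its gene to 1.00 and 1.22%. Its log2 fold change was -4.53 (SE 0.25, edgeR adjusted p = 0.017). Fcgr1-202 (-3.24, SE 0.47, adjusted p = 0.040), Lilrb4a-205 (-3.25, SE 0.30, adjusted p = 0.021) and Lars2-209 (-4.14, SE 0.39, adjusted p = 0.021) were lower too.

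The largest folds were of transcripts listed at 0 in 1 pair. For these, a floor of 3 counts per library was used in the low pair. It covers counting error only, not the division of reads between transcripts, so the folds are not lower bounds on the change. Tmed2-205 had 0, 0, 336 and 480 TPM in RSEM, 503-fold higher in replicates 3 and 4 at this floor. In kallisto it had 45.5, 56.7, 288 and 426 TPM. Rock1-204 (261-fold), Grk2-209 (204-fold), Ap3s1-205 (135-fold) and Abcd3-205 (128-fold) followed at the same floor. Kallisto gave Rock1-204 2.89, 1.70, 17.9 and 22.2 TPM (log2 fold change 2.66, edgeR adjusted p = 0.0606) and Abcd3-205 2.26, 0.264, 25.2 and 30.7 TPM (3.92, edgeR adjusted p = 0.137), smaller changes that did not pass. Ap3s1-205 had 4.04, 6.07, 32.4 and 61.4 TPM there (2.92, edgeR adjusted p = 0.0461). Of these transcripts only Grk2-209, of a kinase gene that desensitises receptors, was also at 0 TPM in replicates 1 and 2 in kallisto. Among the lower ones, Gbp5-202 was 457-fold lower at the floor (9.05, 13.1, 0 and 0 TPM in RSEM, 7.98, 13.1, 7.38 and 0.565 in kallisto). Nfkb1-207 was 251-fold lower, Slc35f6-204 210-fold, Tor3a-202 186-fold and Trip12-209 179-fold, each at the same floor in RSEM. In kallisto Tor3a-202 had 47.9, 37.2, 0 and 0.00 TPM, whereas Slc35f6-204 had 27.2, 21.1, 8.25 and 17.5 TPM and Trip12-209 0.615, 12.9, 0.254 and 0 TPM (edgeR adjusted p = 0.178 for Trip12-209). The ranking by usage added Lrp12-204 and Lpcat1-202 (0, 0, 5.07 and 5.04 TPM) among the higher and Primpol-208 (2.54, 4.45, 0 and 0 TPM) among the lower, each in the same direction in kallisto.

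**Figure D5:**
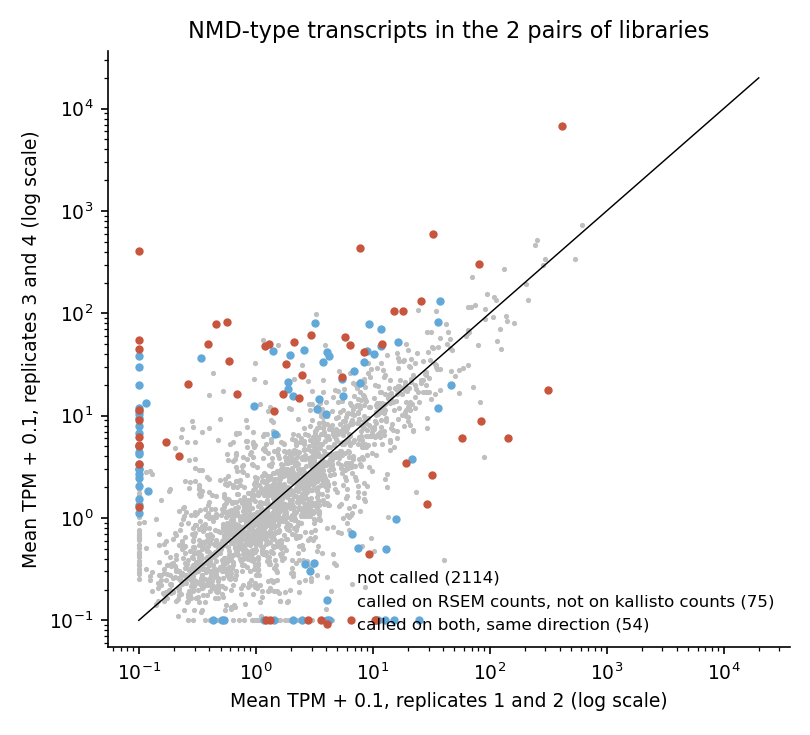
Mean RSEM TPM + 0.1 of replicates 3 and 4 (y axis, log scale) against replicates 1 and 2 (x axis, log scale) for the 2243 tested NMD-type transcripts, with the line of equality. Red points (54) were called on RSEM and on kallisto counts in the same direction and blue points, the rest of the 129, on RSEM counts alone, and points on an edge of the plot were listed at 0 TPM in 1 pair.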

How the data were processed

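RNA was measured in 4 libraries of 1 group. Per the deposited notes, the authors made a gene and a transcript table from an alignment to the transcriptome and a second transcript table straight from the reads, on mm10 with GENCODE M21. What programs were run is not given in the sources used here; the text says RSEM and kallisto for the 2 column layouts. The authors deposited expected and estimated counts without normalization, and TPM scaled within a library per the file headers. The interval bounds deposited beside RSEM TPM are treated as a signal, their level is not stated, and 0.608 to 2.92% of members with at least 1 TPM lay outside their own interval, so only widths were used. In the kallisto layout, rows without a transcript numbered 97 (0.0445 to 0.114% of estimated counts) and were left out.

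A share is a transcript's TPM over the summed TPM of its gene's transcripts, and all 55450 sums lay within 0.1 TPM or 1% of the deposited gene table. Stop codon places came from the GENCODE M21 annotation on mm10. Expected counts were rounded and tested in R 4.3.3 by the quasi-likelihood test of edgeR 4.0.16 (TMM factors, filterByExpr at 10 counts, diffSpliceDGE for usage, Benjamini-Hochberg threshold 0.05 over all transcripts), with SE as the fold change over the root of the F statistic. DESeq2 1.42.0 was an alternative. Discordance used a pseudocount of 0.1. On simulated counts for 33366 transcripts the comparison recovered 2, 62, 76 and 90% of changes of 1, 2, 3 and 4 on the log2 scale. The usage test recovered 0, 10.3, 23.3 and 52.2%. At each size 50 transcripts were changed, all drawn from transcripts well above the count filter. The division of reads between transcripts was not simulated, so recovery for members of low count was not measured. Figures used Python 3.11.15, pandas 2.3.3, numpy 2.4.6 and matplotlib 3.10.9.

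The members, lists, tests and alternatives were chosen with earlier results of these data known. Named transcripts are the 10 of highest TPM, the 10 of highest share, the 3 highest of each of 7 lists, the 3 most discordant each way, the 5 largest called changes each way by counts and by usage where the mean TPM was 1 or more, and the 3 steadiest and 3 most variable shares. Others were named after their values were seen. Values of some named transcripts are not reported here.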

Additional observations from a re-analysis of the deposited data

Results flagged for a closer look

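Replicate 4 stood far from the other libraries for the RSEM TPM of Lrp12-204, an NMD-type transcript of a lipoprotein receptor family gene. It had 0, 0, 10.9 and 67.9 TPM in replicates 1 to 4, and the gap from replicate 4 to the next library was 0.840 of the whole range, above Dixon's critical value for 4 samples. Kallisto gave 0, 0, 12.3 and 78.0 TPM. Of 60 results looked at in this way 1 was picked out, and chance picks about 1 in 20.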

How the results depend on the processing

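The number of NMD-type transcripts with at least 1 TPM in every library (823) was 899 in kallisto, 1793 at a threshold of 0.1 TPM, 275 at 5 TPM, and 868 to 930 without 1 replicate. The share of all TPM (2.00%) stayed within 1 SD under every alternative run: 1.95% in kallisto, 2.17% within protein-coding genes, 2.18% without mitochondrial and rRNA transcripts, 1.77 to 2.23% without 1 replicate and, in 2 alternatives chosen after seeing the data, 1.64% without Gpnmb-202 and 1.37% from members of 600 nt or longer. The median share per gene (2.06%) was 3.02% in kallisto, 2.29% with genes of at least 1 TPM and 2.35% over protein-coding and NMD-type transcripts alone, and 1.99 to 2.14% without 1 replicate. The number of genes at 50% or more (39) was 82 with genes of at least 1 TPM, 108 with all genes above 0 TPM, 49 in kallisto and 40 to 47 without 1 replicate. Discordant members (192) were 84 with a pseudocount of 1 and 221 to 246 without 1 replicate. Called members (129) were 583 when 1 count in 1 library sufficed, 405 by DESeq2, 101 with kallisto counts, 139 with GC and length offsets and 0 to 88 without 1 replicate; usage calls (233) were 106 to 154 without 1 replicate and 203 to 241 otherwise. The called share of all transcripts tested moved with the settings too. With 1 count in 1 library it was 9.34%, beside 12.9% of tested members. By DESeq2 it was 16.0% beside 18.1%, with kallisto counts 2.65% beside 3.71%, and with offsets 4.36% beside 6.20%. For usage it was 3.18% beside 4.57% with 1 count in 1 library. With kallisto counts the usage shares were 6.33% beside 9.05%, and with offsets 8.13% beside 10.9%. Without 1 replicate an arm held 1 library, assumed to vary like the other arm. With kallisto, 23 of 55 named shares moved by 1 SD or more and 32 by less; the cause was not tested. No paired analysis was possible because the series has 1 group. The 138 tested members under 600 nt had a median log2 fold change of 0.36, and the others 0.04.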
